A study of Mus musculus with 3 samples.

Results

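The genes described here remove or read N6-methyladenosine (m6A), the methyl mark on internal adenosines of messenger RNA. They are the 2 erasers Fto and Alkbh5 and the 5 YTH readers Ythdf1, Ythdf2, Ythdf3, Ythdc1 and Ythdc2, 7 of the 21887 protein-coding genes on placed mouse chromosomes, chosen by name. Chromatin sites of the zinc finger factor ZFP410 were located by CUT&Tag, in which an antibody directs a transposase to cut and tag the DNA around the bound protein. The cells were brown preadipocytes, precursors of thermogenic fat, sorted from wild-type male C57BL/6 mice as lineage-negative cells that carried CD29, CD34 and Sca1. The induced library came from cells kept for 3 days in brown adipocyte differentiation medium and probed with the ZFP410 antibody. The untreated library came from cells without that medium and the same antibody, and the IgG library from untreated cells with control IgG. With 1 library per group there is no p-value and no measure of the spread between cultures, and every comparison is between libraries. Peak lists hold no expression values, so the labelled cell type was not checked against markers, and whether the 7 genes were transcribed was not measured.

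m6A is written by a nuclear methyltransferase complex around METTL3, METTL14 and WTAP. FTO and ALKBH5, both dioxygenases of the AlkB family, take it off, and proteins with a YTH domain bind the methylated base. YTHDF1, YTHDF2 and YTHDF3 act in the cytoplasm on translation and decay, YTHDC1 acts in the nucleus on splicing and export, and YTHDC2 is an RNA helicase known for its part in meiosis. FTO is known in adipose tissue as a regulator of adipogenesis.

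The lists held 7475 induced, 3256 untreated and 480 IgG peaks. The depth of each library is not stated. The genome-wide background that the authors' values imply was 0.246 fragments per position in the induced library, 0.110 in the untreated library and 0.0231 in the IgG library, so the induced background was 2.24 times the untreated one. The weakest peaks called held 4, 3 and 2 fragments in these lists. A longer list places more summits near any gene, and the counts that follow are read against the share of all coding genes called in the same list.

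ZFP410 peaks lay at the starts of both eraser genes in induced cells and at no YTH reader gene. A summit within 1 kb of a gene end, called a gene-end summit, was found for 2 of 7 members in the induced list, Fto and Alkbh5, where 8.43% of all coding genes had one. In the untreated list 0 of 7 members had one, against 3.73% of coding genes, and in the IgG list 0 of 7, against 0.0366%. The intervals were wide: the induced share of 28.6% has a 95% Wilson interval of 8.22 to 64.1%, and 0 of 7 allows up to 35.4%. These intervals cover counting error only, and the members were not drawn at random. At a −log10 q of at least 5, or a fold of at least 5, neither eraser kept a peak, while 4.42 and 5.87% of coding genes kept an induced gene-end summit. Of coding genes, 6.63 and 8.63% then kept an induced summit inside and 12.5 and 15.8% one inside or within 10 kb. In the untreated list the same limits left gene-end summits at 1.00 and 1.94% of coding genes, summits inside at 1.81 and 3.00%, and summits inside or within 10 kb at 3.34 and 5.60%.

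The promoter windows of the erasers are shown because all 3 member peaks lie over or beside them. They are RefSeq windows on GRCm38.p6, from 250 bases before to 50 bases after the annotated start, printed 5′ to 3′ on the gene's strand, with the bases under an induced peak in capitals. The Fto window is chr8:91313275-91313574 and the Alkbh5 window chr11:60537433-60537732, both on the plus strand.
Fto: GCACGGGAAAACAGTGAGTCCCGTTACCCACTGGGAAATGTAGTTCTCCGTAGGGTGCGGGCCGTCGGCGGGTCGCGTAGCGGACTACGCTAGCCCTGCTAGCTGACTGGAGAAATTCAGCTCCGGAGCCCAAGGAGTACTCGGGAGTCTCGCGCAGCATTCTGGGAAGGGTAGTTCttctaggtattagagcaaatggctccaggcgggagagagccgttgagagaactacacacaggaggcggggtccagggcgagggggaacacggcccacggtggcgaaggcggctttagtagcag
Alkbh5: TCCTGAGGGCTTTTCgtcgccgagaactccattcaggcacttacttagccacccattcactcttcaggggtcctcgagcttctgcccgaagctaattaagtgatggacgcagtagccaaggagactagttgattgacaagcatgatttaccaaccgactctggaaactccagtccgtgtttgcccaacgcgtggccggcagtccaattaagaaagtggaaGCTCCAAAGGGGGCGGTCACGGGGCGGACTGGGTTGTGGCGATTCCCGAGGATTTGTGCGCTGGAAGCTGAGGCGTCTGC
In the Fto window 177 of 300 bases lay under the peak, and its summit fell on base 90 of the window. In the Alkbh5 window 95 bases lay under peaks, at both edges, and neither summit fell inside it.

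Fto, the first m6A demethylase described, spans 355 kb at 91313367 to 91668433 on chromosome 8 (mm10). In the induced list a peak of 15 fragments lay at 91313131 to 91313451, with its summit 3 bp outside the first base of the gene and 161 bp before the start site of the printed window. No untreated peak and no IgG peak overlapped it. The nearest untreated summit lay 1043 kb from this site and the nearest IgG summit 2271 kb. The peak stood over a local background of 2.76 fragments, 11.2 times the genome background of its library, and the authors' fold was only 4.26, rank 6468 of 7475. By fragments alone it ranked 747. The −log10 q was 3.87.

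The Fto peak is also a peak of Rpgrip1l, a gene of the ciliary transition zone, whose nearer end lies 76 bp from Fto. The summit was 73 bp from Rpgrip1l and 3 bp from Fto, so the peak cannot be assigned to either gene. Such sharing was common, as 37.8% of the 1846 genes with an induced gene-end summit shared it with another coding gene (697 genes).

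Alkbh5, the second eraser, which is found mainly in the nucleus, lies at 60537683 to 60558512 on chromosome 11. The induced list had a peak of 4 fragments at 60537305 to 60537447, with its summit 307 bp before the start site, and a peak of 5 fragments at 60537653 to 60537887, with its summit 56 bp after it. No untreated peak and no IgG peak overlapped either of them, and the nearest untreated summit was 246 kb away. Both stood at the genome background, with folds of 4.01 and 4.81, ranks of 6539 and 4985 and −log10 q values of 1.93 and 3.11. These are among the weakest kinds of peak in the list: 580 induced peaks held 4 fragments at the genome background, and 1103 held 5. Having several gene-end summits was uncommon, at 6.18% of genes with any (114 of 1846). Myo15, the nearest neighbour, ends 9.31 kb before Alkbh5, and no other coding gene had an end within 1 kb of either summit.

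**Figure D1:**
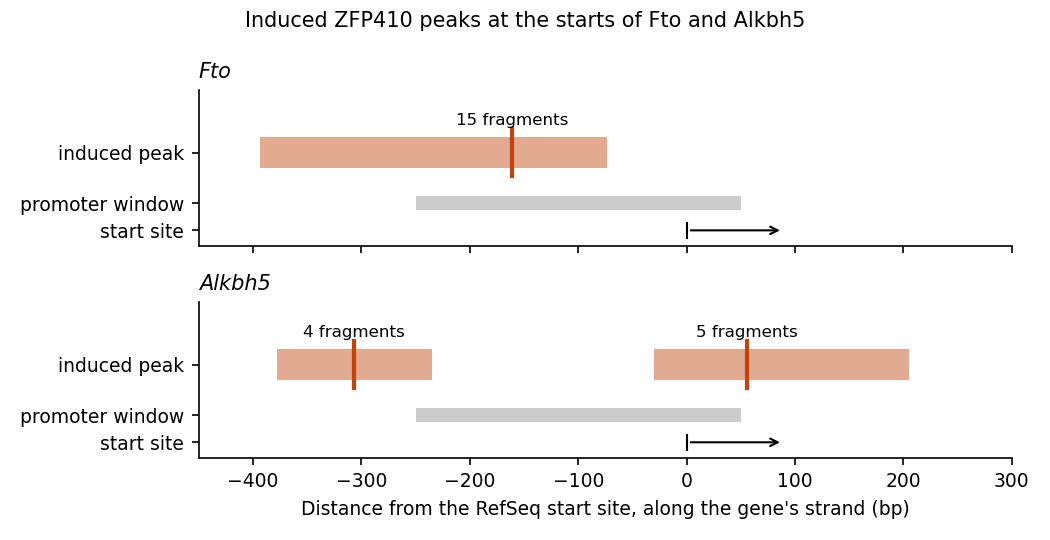
Induced ZFP410 peaks (bars) and summits (vertical lines, with summit fragments) at Fto and Alkbh5, by distance in bp from the RefSeq start site along the gene's strand; the grey bar is the 300-base promoter window and the arrow the start site. The Fto summit of 15 fragments lies 161 bp before the start site, and the Alkbh5 summits of 4 and 5 fragments lie 307 bp before and 56 bp after it; no untreated peak was called in either stretch.

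The lack of an untreated peak at the erasers was set against what depth allows. At equal enrichment over the genome background, the 15 induced fragments at Fto correspond to 6.70 in the untreated library (3.75 to 11.04, from the exact 95% Poisson interval of the 15). With the local background scaled to 1.23 fragments, a call there needed 8. That background was not measured in the untreated library and assumes that both lists were called against 1 control, which the labels do not state. At the untreated genome background a call would have needed 3, below the whole interval. The 4 and 5 fragments at Alkbh5 correspond to 1.79 (0.486 to 4.57) and 2.23 (0.725 to 5.21), where a call needed 3. At Alkbh5 both expected numbers were below the number needed and both intervals included it, so a difference between induced and untreated cells was not detectable at this depth. At Fto the same holds only with the scaled local background. When the induced list was reduced to peaks that the untreated list could have reached with scaled local backgrounds, 0 of 7 members had a gene-end summit, against 4.52% of coding genes. In IgG 1.40 fragments (0.786 to 2.32) would be expected at Fto, where a call needed 4, and 0.375 (0.102 to 0.959) and 0.468 (0.152 to 1.09) at Alkbh5, where a call needed 2, so the lack of IgG peaks there says little.

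Across the genome, most induced peaks like those at the erasers had no untreated partner. An untreated peak overlapped 28 of the 580 induced peaks of 4 fragments at the genome background (4.83%, 95% Wilson interval 3.36 to 6.89) and 79 of the 1103 of 5 fragments (7.16%, 5.78 to 8.84). Among the 262 induced peaks with a local background of at least 2 fragments, as at Fto, 107 had an untreated partner (40.8%, 35.1 to 46.9). This group was matched to Fto on background only, not on fragments. The induced Hnrnpc peak, with 15 fragments over a local background of 2.01, falls in it too. Only the Fto peak held 15 fragments at almost exactly its own background of 2.76. A match on fragments within the group was not made.

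**Figure D2:**
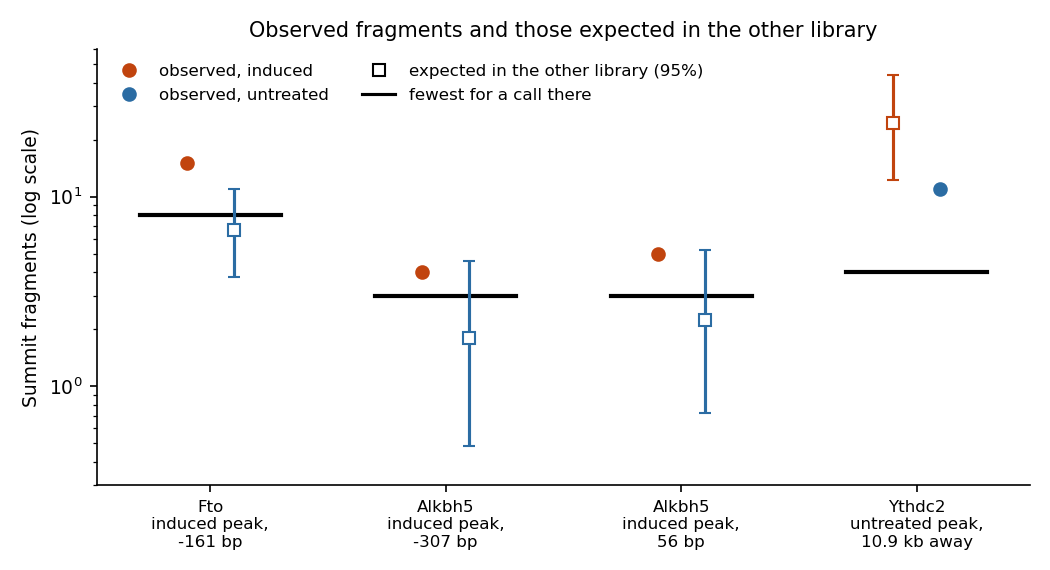
Summit fragments on a log scale at the 3 eraser sites and at the untreated site near Ythdc2: filled points are observed, open squares the number expected in the other library at equal enrichment with 95% Poisson intervals, and black lines the fewest fragments for a call there at the scaled local background. The expected untreated numbers at Fto and Alkbh5, 6.70, 1.79 and 2.23, lie under the lines at 8, 3 and 3, and the expected induced number at the Ythdc2 site, 24.6, lies above the line at 4.

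Inside the genes, the members' count was near that of coding genes at large. Alkbh5 was the only member with a summit between its first and last base in the induced list, 1 of 7 against 11.9% of coding genes, and it is the peak of 5 fragments already described. In the untreated and IgG lists 0 of 7 had one, against 6.27% and 0.503%. The long body of Fto held no summit in any list. Of the 568 coding genes within 1.5-fold of its length, 42.1% had an induced summit inside and 21.5% an untreated one. For the other members the shares among genes of like length ran from 9.02 to 17.9% in the induced list and from 4.78 to 9.32% in the untreated list. Summed over the 7 members, the like-length shares come to 1.17 induced and 0.606 untreated genes, beside the 1 and 0 observed.

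Within 10 kb the count did not grow. In the induced list 2 of 7 members had a summit inside or within 10 kb (21.3% of coding genes), in the untreated list 0 (11.1%) and in the IgG list 0 (0.690%). Just outside the bound, the next summits lay 41601 bp from Ythdf3 in the induced list and 10920 bp from Ythdc2 in the untreated list.

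The cytoplasmic readers had no peak nearby. The induced summit nearest to Ythdf1, which promotes translation of methylated messages, lay 195 kb away, the nearest untreated summit 239 kb and the nearest IgG summit 638 kb. They held 5, 8 and 2 fragments, and 71.3% of coding genes had a nearer induced summit. Ythdf2, which brings methylated messages to the CCR4-NOT deadenylase, had its nearest summits 57.1 kb away in induced and 57.2 kb away in untreated cells. Ythdf3, a partner of the other YTHDF proteins, had an induced summit of 6 fragments at 41.6 kb, while the nearest untreated summit was 1604 kb away. The median coding gene stood 82.2 kb from an induced and 193 kb from an untreated summit, so Ythdf2 and Ythdf3 were nearer than the median in the induced list, Ythdf2 also in the untreated list, and Ythdf1 in neither.

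The summits nearest to Ythdf2, 57.1 kb from it in the induced list, were at a site that both ZFP410 lists called. The peaks lay at 132269027 to 132269648 in the induced and 132269271 to 132269588 in the untreated list on chromosome 4, beyond Gmeb1, whose nearer end was 7738 bp from the induced summit. They held 14 induced and 5 untreated fragments, an enrichment ratio of 1.25 (exact binomial 95% interval 0.425 to 4.43), which includes no change. The ratio of folds was 2.2, where each fold adds 1 to the fragments and to the local background. These backgrounds were 0.276 induced and 0.123 untreated, and a ratio by local background without the added 1 was not computed. This site was the one nearest to a member that both lists shared. For the other members such shared sites were between 246 and 2946 kb away, with ratios from 0.357 to 0.744 and intervals that all included 1. The ratios of folds near Fto, Alkbh5, Ythdf3 and Ythdc1 were above 1, at 1.07, 1.25, 1.34 and 1.11. At these sites the local backgrounds equalled the genome backgrounds, 0.246 induced and 0.110 untreated. The turn in direction thus came from the added 1 and not from the background used. The median enrichment ratio of 1300 shared low-background pairs was 0.829. Shared sites enter only where both lists called a peak. The fewest fragments called were 3 untreated, where the genome background was 0.110, and 4 induced, where it was 0.246. An untreated call thus asked for a higher enrichment, which can lower the ratios at shared sites. How far it does was not tested, and lower enrichment after induction cannot be read from them.

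The nuclear reader gene Ythdc1 had its nearest summits 107 kb away in induced cells, with 9 fragments, and 738 kb away in untreated cells, with 3. Only 1 induced summit and no untreated summit lay within 500 kb of it, where the median coding gene had 4 and 2. Ythdc2, the helicase, was the 1 member nearer to an untreated than to an induced summit. An untreated peak of 11 fragments lay at 44816607 to 44817016 on chromosome 18, 10920 bp below the lower coordinate of Ythdc2 (gene at 44827730 to 44889720) and 4628 bp above the upper coordinate of Mcc, a gene named for its mutation in colorectal cancer. Its fold of 10.8 ranked 109 of 3256, and its −log10 q was 15.3.

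No induced summit was called within 500 kb of Ythdc2, the nearest being 508 kb from the gene and 580 kb from the untreated summit. At equal enrichment the 11 untreated fragments correspond to 24.6 in the induced library (12.3 to 44.1), where a call at that background needed 4. The interval lies above that number. Of 118 untreated peaks with at least 11 fragments and a local background of at most 2 times the genome value, 112 overlapped an induced peak (94.9%) and 6 did not, this site among them. In IgG 2.31 fragments (1.15 to 4.13) would be expected at the site, with 2 needed, and no IgG peak was called within 1213 kb. That interval includes the number needed, so the lack of an IgG peak says little here too. The peak stands alone in 1 library and has no replicate.

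**Figure D3:**
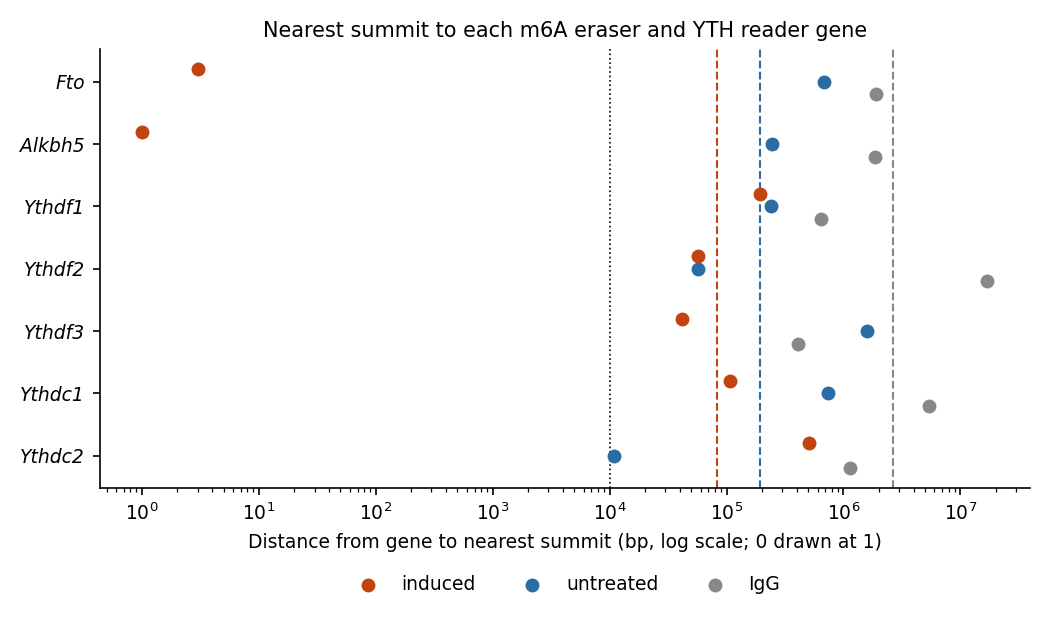
Distance in bp on a log axis from each member gene to the nearest induced, untreated and IgG summit (0, inside the gene, is drawn at 1); dashed lines are the medians over all coding genes in the same colours and the dotted line is 10 kb. Only Fto and Alkbh5 in the induced list lie left of 10 kb, and Ythdc2 is the member whose untreated summit (10920 bp) is nearer than its induced one (508 kb).

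Beyond Fto lie Irx3 and Irx5, homeobox genes that, in human genetics, are linked to obesity-associated variation in introns of FTO. No summit of any list lay within 10 kb of Irx3, which lies 130 kb past the end of Fto. Irx5, 689 kb past it, had induced peaks of 5 and 6 fragments 1809 and 1531 bp below its lower coordinate and an untreated peak of 4 fragments 1867 bp from it. The peak of 5 and that of 4 overlapped and are the shared site nearest to Fto, with a ratio of 0.558 (0.120 to 2.81).

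The promoter windows of 5 members were in the RefSeq table, all but Ythdf3 and Ythdc2. Their GC content was 60.7% for Fto and 55.3% for Alkbh5, with 23 and 18 CpG dinucleotides. Ythdf1, Ythdf2 and Ythdc1 had 70.0, 66.3 and 64.0% and 37, 32 and 35 CpG. The windows of the genes with a peak were thus lower in GC and CpG than those of the 3 readers without one, although windows that held an induced summit had a median of 62.8% and 24 CpG, against 52.7% and 7 over all 32851 windows.

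Short motifs were searched in these windows on both strands. CCCATAA, a stretch of the binding sequence known for ZFP410 and its human counterpart ZNF410, was in none of the 5 windows, and in 2.50% of all windows. It was in 2.37% of the 972 windows that held an induced summit and 2.78% of the 396 that held an untreated one. ACTACANNTCCC, part of the known motif of another zinc finger factor, ZFP143, was searched after the Fto sequence had been read. It occurs in 1 of the 5 windows, that of Fto, on the opposite strand at bases 33 to 44, 46 bp from the summit and under the peak. It was in 1.81% of all windows, 6.89% of those with an induced summit and 4.29% of those with an untreated one. A match describes letters only, and the windows cover 300 bases of each gene.

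Other genes of the m6A pathway, in 5 lists of 37 genes, also had more gene-end summits in the induced than in the untreated list, as did coding genes as a whole. In the induced list 7 of 37 had one (18.9%, 9.48 to 34.2), beside the 8.43% of coding genes. In the untreated list 2 of 37 did (5.41%, 1.50 to 17.7), beside 3.73%, and in the IgG list 0. Among induced peaks within reach of the untreated list, 4 of 37 remained, beside 4.52% of coding genes. The difference between the libraries was not tested.

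In the writer complex 1 of 8 genes had an induced gene-end summit and 0 an untreated one. It was Cbll1, encoding the E3 ligase HAKAI of the complex, with 4 fragments. Rbm15, whose protein guides the complex to its RNA targets, had an induced peak of 10 fragments inside the gene, 1196 bp from its end and so just outside the window. Inside Mettl14, the partner of the catalytic subunit, lay an untreated peak of 3 fragments. The site nearest to Wtap, 6201 bp away in the induced and 6171 bp away in the untreated list, held 7 and 3 fragments, and it is at an end of Acat2, encoding an acetyl-CoA acetyltransferase.

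Among other RNA methyltransferase genes, Trmt112, whose protein activates several methyltransferases, had gene-end peaks in both ZFP410 lists, 1 of 5 genes in each. They held 8 induced and 5 untreated fragments, an enrichment ratio of 0.714 (0.206 to 2.77) and a ratio of folds of 1.34. Prdx5 shares these peaks. Among other AlkB dioxygenases, the family of the erasers, 1 of 7 genes had a gene-end peak in each ZFP410 list, in both cases Alkbh3, whose protein repairs alkylated nucleic acids. Its peaks lay 855 and 925 bp from the gene with 14 induced and 5 untreated fragments. Their enrichment ratio was 1.25 (0.425 to 4.43) and their ratio of folds 2.18. The induced −log10 q of 15.7 exceeded that of any eraser peak.

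Of 8 other proposed m6A readers, 2 carried an induced gene-end peak, Hnrnpc and Prrc2a, each of 15 fragments, and 0 an untreated one. As at Fto, these stood over raised local backgrounds, of 2.01 at Hnrnpc and 1.49 at Prrc2a. The number expected in the untreated library was 6.70 for each, with 7 and 6 needed for a call at the scaled backgrounds. Igf2bp3, a reader gene that stabilises messages, had the highest-ranked peaks of the 5 lists, away from its ends. They held 20 induced and 10 untreated fragments, with ranks 241 and 142. Their enrichment ratio was 0.893 (0.399 to 2.14) and their ratio of folds 1.70. Of 9 partners of YTH proteins, Nxf1, the mRNA export receptor, and Srsf10, a splicing factor that interacts with YTHDC1, had induced gene-end peaks of 7 and 6 fragments, and 0 had untreated ones.

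**Figure D4:**
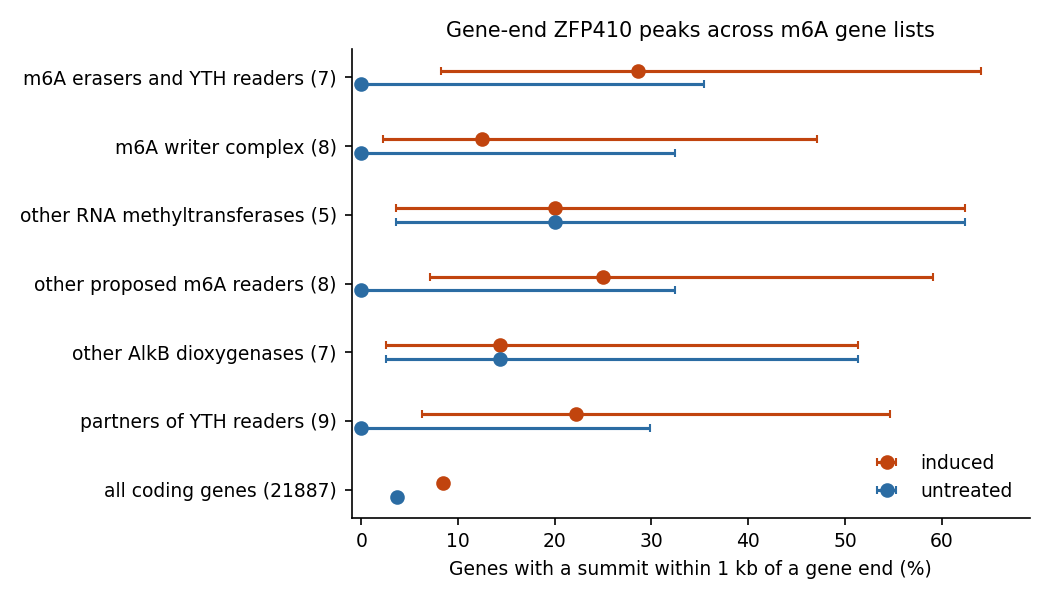
Share of genes in each list with a summit within 1 kb of a gene end, in the induced and untreated libraries, with 95% Wilson intervals and the number of genes in brackets. The erasers and readers stand at 28.6% induced and 0% untreated, with overlapping intervals (induced from 8.22%, untreated up to 35.4%), and all coding genes at 8.43 and 3.73%.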

How the data were processed

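The submitters' processing notes name the build mm10 and the tools Bowtie2 2.2.6, MACS2 2.1.1 and Picard. The deposited lists, 1 per library, carry a q threshold of 0.1 in their peak names. For each peak they give the authors' score (not used), the fold over local background, and the −log10 of p and q. The control, duplicate handling and read depth: not given in the sources used here.

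From the fold, (fragments + 1)/(background + 1), and the Poisson tail of the p-value, summit fragments and local background were recovered for 7475 of 7475 induced, 3255 of 3256 untreated and 480 of 480 IgG peaks. On simulated peaks 99.9, 100 and 100% of 983, 974 and 907 were recovered. The simulation tests the inversion, not whether the deposited values follow these formulas. Where the libraries' peaks had summits within 20 bp and raised backgrounds, the induced background was 2.24 times the untreated one in 82 of 129 pairs and 2.01 times in 19, and this second value was taken as relative depth. Enrichment is fragments over genome background.

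Distances run from the summit to gene ends of RefSeq genes (GRCm38.p6, the coordinates of mm10), without exons. Peaks overlapped by at least 1 bp. Scripts used Python 3.11.15 and scipy 1.17.1. Named genes are all members, genes sharing a member's peak, some of the members' neighbours, and all other-list genes with a gene-end peak. Some other-list genes with a peak elsewhere are named and some are not, and Prdx5 is named for sharing the Trmt112 peaks. Igf2bp3, Rbm15, Mettl14 and Acat2 were named after their values were seen. Members and lists were chosen with earlier results of these data known.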

Additional observations from a re-analysis of the deposited data

How the results depend on the processing

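No paired analysis was possible because each group held 1 library. The induced member counts rest on weak peaks: at a −log10 q of at least 5, and likewise at a fold of at least 5, 0 members had a gene-end peak, 0 a peak inside and 0 a peak within 10 kb in the induced list. The same cuts left 4.42, 6.63 and 12.5% of coding genes at the q setting and 5.87, 8.63 and 15.8% at the fold setting. Among induced peaks within reach of the untreated list, a setting added after the data were seen, 0 members and 4 other pathway genes had a gene-end peak. Counting any base of a peak gave 2 induced members with a peak inside, as the Fto peak runs into the gene. A window of 20 kb gave 1 untreated member, Ythdc2. The share of coding genes was not computed for either setting, so these counts cannot be set against it. For other pathway genes the untreated gene-end count was 0 at the q setting, 1 with a window of 500 bp and 1 with start sites only (31 of 37 genes had one). The remaining 52 of 65 counts stayed within 1.5 times their value, and the 24 ratios under other scalings stayed within their intervals. Most of these counts were 0 throughout, which stricter cuts cannot raise, and the intervals were wide, so this says little about stability. The ratios of folds at 7 sites lay above 1 (1.07 to 1.70), and the ratios by genome background below it. These were the shared sites nearest to Fto, Alkbh5, Ythdf3 and Ythdc1 and those of Mettl16, Trmt112 and Igf2bp3. At all but Mettl16 the local backgrounds equalled the genome backgrounds, so the turn came from the 1 added in the fold. At Mettl16 they were 0.920 induced and 0.257 untreated, and a ratio by local background without the added 1 was not computed.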
